A study of Mus musculus with 6 samples.

Results

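The genes described here are 31 macrophage and monocyte transcripts, picked by symbol as genes that T cells do not usually make, among the 55450 genes of a table of sorted tumour regulatory T (Treg) cells. Each of the 31 symbols matched a single gene of the table. The question put to them is how far their levels vary between libraries of both groups. The groups were 3 libraries in which the Treg cells were Tim-3 deficient and 3 in which they were Tim-3 sufficient. All mice were C57BL/6 and bore MC38 tumours, a mouse colon carcinoma line, of about 8 mm in diameter. Havcr2 is the gene of Tim-3, a receptor that dampens T cell and myeloid responses, and Treg cells are CD4 T cells that hold immune responses in check under the factor Foxp3. The allele or Cre line that removed Tim-3, the age and sex of the mice, and whether a library came from 1 mouse are not given in the sources used here, so each p-value reflects the spread among these libraries only, part of which may be technical.

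Macrophages and monocytes are phagocytes that settle in large numbers in transplanted tumours. They take up dying cells and debris through complement, Fc and scavenger receptors, break the cargo down in lysosomes rich in cathepsins and lysozyme, and need signals through the receptor for colony-stimulating factor 1. Tumour macrophages are known for the complement component C1q, apolipoprotein E and arginase 1. T cells make little of these, while the cathepsins are made by many cell types.

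Levels are in TPM, a share of each library's transcripts corrected for their length, or in log2(TPM + 1). Libraries are called by the mark in their column name: deficient C1, deficient D and deficient dated, and sufficient A1, sufficient B1 and sufficient dated, where the dated library of each group carried a calendar date in its name. Read depth is unknown, since TPM keeps no counts, so no counting interval is given, and a gene without signal is said to be listed at 0. Genes at 1 TPM or more numbered 12681, 12364 and 11474 in deficient C1, D and dated. In sufficient A1, B1 and dated they numbered 12275, 12104 and 11470, so both dated libraries were lowest. Havcr2 had 10.63, 18.3 and 4.84 TPM in deficient C1, D and dated, against 51.13, 49.0 and 21.51 TPM in sufficient A1, B1 and dated, so each deficient library lay below each sufficient one. T cell transcripts were present in each library. Foxp3 stood at 42.3 to 46.1 TPM in deficient libraries and 27.2 to 45.0 TPM in sufficient libraries. The summed level of 7 T cell markers was 6464.1, 9175.5 and 10062.0 TPM in deficient C1, D and dated, against 11366.3, 11162.1 and 10792.1 TPM in sufficient A1, B1 and dated.

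Macrophage transcripts were concentrated in 1 library of each group. Deficient C1 held the highest value of 25 of the 31 genes, and in 20 of the 31 genes deficient C1 was highest and sufficient B1 second. Among genes at 1 TPM or more in at least 3 libraries, the order occurred in 12 of 20 of these genes, and in 487 of 12155 genes of the table, or 4.01%. The order was picked after the values of these genes were seen, so its count among them is a description and not a test. For deficient C1 being highest, whatever library was second, the share of all genes was not counted. Most of the 31 genes were lower in the other libraries, with Tyrobp, Aif1, Spp1, Cebpb, Ctsb and Ctsd among the exceptions. Deficient D had 12 of the 31 genes listed at 0 and deficient dated 6, while deficient C1 had 1. Among sufficient libraries, A1 had 4 genes listed at 0, B1 had 2 and the dated library had 4. Csf1r, the receptor for colony-stimulating factor 1, had 9.80, 0 and 0 TPM in deficient C1, D and dated, against 0.42, 1.85 and 0.29 TPM in sufficient A1, B1 and dated. Adgre1, which encodes the F4/80 antigen of mouse macrophages, was listed at 0 in deficient D, deficient dated and sufficient A1, and had 3.72 TPM in deficient C1 against 1.87 TPM in sufficient B1. Fibroblast transcripts followed this order in part. The 6 fibroblast markers summed to 298.0, 30.4 and 6.6 TPM in deficient C1, D and dated. In sufficient A1, B1 and dated they summed to 1.8, 40.3 and 4.6 TPM, so sufficient A1 was lowest. Dcn made up most of the sum in deficient C1, deficient D, sufficient A1 and sufficient B1. Col1a1 was at 0.67 TPM or less, and both Col1a1 and Col1a2 were highest in deficient D. The part of fibroblasts in the macrophage values was not tested. In bulk libraries of this kind, fewer cells of a type and less RNA per cell cannot be told apart, and no value in the table measures from which cells the transcripts came.

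**Figure D1:**
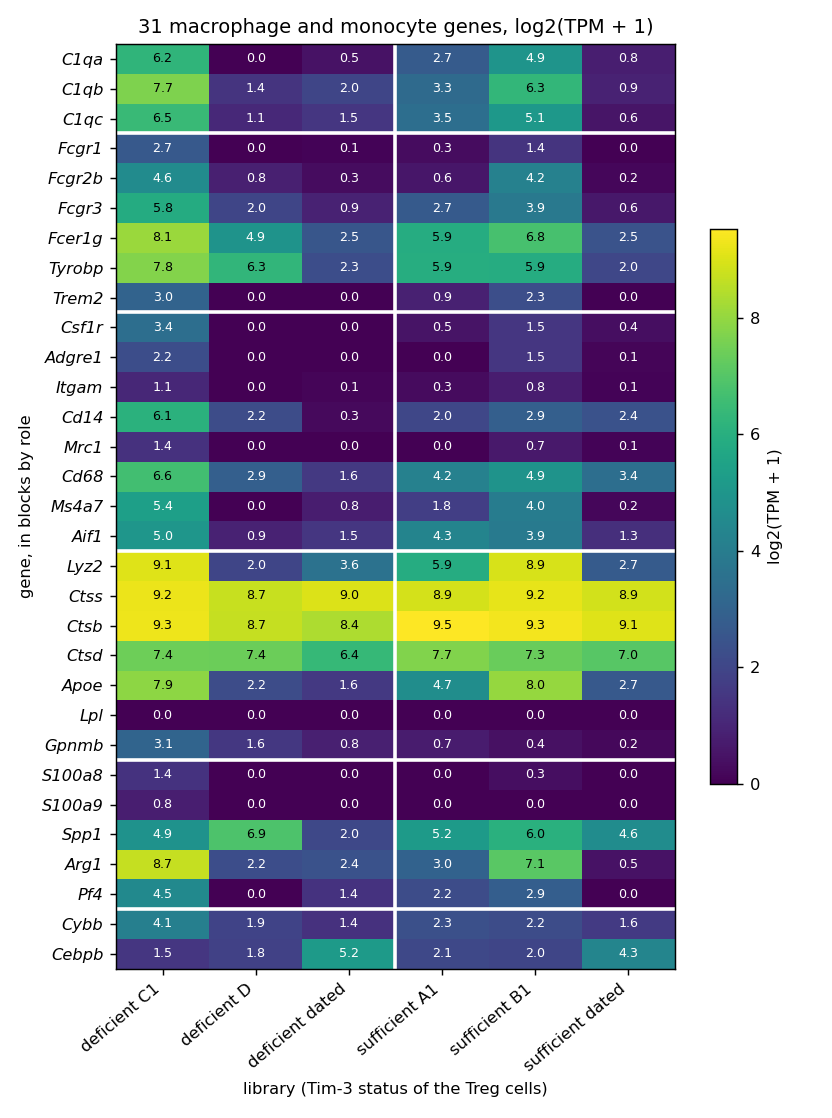
Heat map of the 31 genes (down, in blocks by role) in the 6 libraries (across), as log2(TPM + 1), with the value written in each cell. Deficient C1 is highest in 25 genes, the 3 cathepsins Ctss, Ctsb and Ctsd are high in each library, and Lpl is near 0 in each.

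Taken as a sum, the 31 genes made up 3857.1, 1256.3 and 1007.1 TPM in deficient C1, D and dated, against 1757.4, 2769.0 and 1205.3 TPM in sufficient A1, B1 and dated. As a share of all TPM this was 0.101% to 0.386%. The mean was 2040 ± 1580 TPM in deficient and 1910 ± 793 TPM in sufficient libraries (SD, n = 3 each), so the groups differed by less than the spread within either. Most of the sum in the low libraries came from 3 genes. The cathepsins Ctss, Ctsb and Ctsd together gave 1390.8, 1000.2 and 926.8 TPM in deficient C1, D and dated, against 1427.6, 1393.0 and 1122.3 TPM in sufficient A1, B1 and dated, a 1.54-fold range. Without them the other 28 genes summed to 2466.3, 256.2 and 80.3 TPM in deficient C1, D and dated, against 329.8, 1376.0 and 83.0 TPM in sufficient A1, B1 and dated. That is a 30.7-fold range, and both dated libraries lay at its low end. The cathepsins made up 36.1% of the sum in deficient C1 and 50.3% in sufficient B1, but 79.6% to 93.1% in the other 4 libraries.

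**Figure D2:**
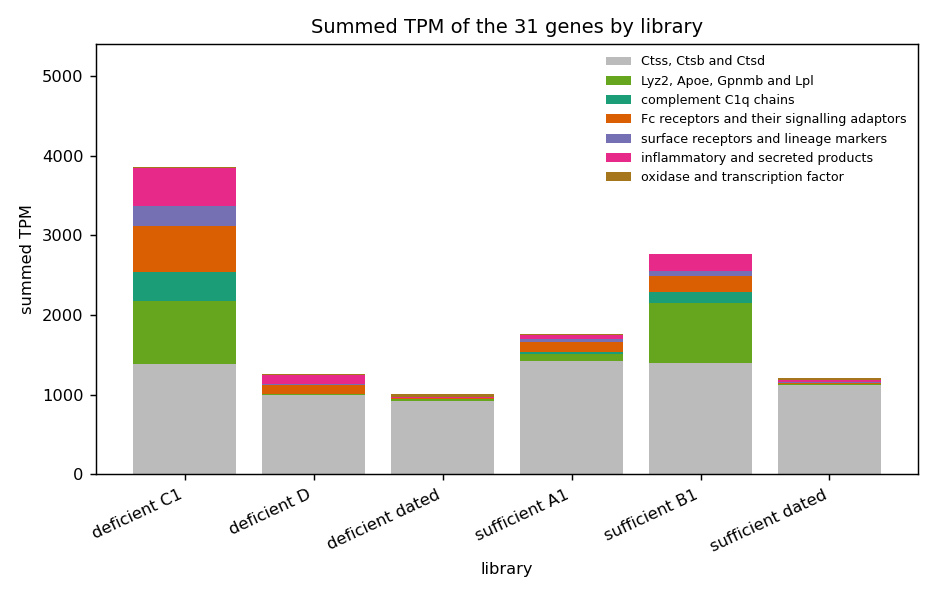
Summed TPM of the 31 genes in each library, stacked by role, with the cathepsins Ctss, Ctsb and Ctsd in grey at the base. The grey part stays between 926.8 and 1427.6 TPM, while the coloured part runs between 80.3 TPM in deficient dated and 2466.3 TPM in deficient C1.

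The complement C1q chains, which together form the recognition molecule of the classical complement pathway, followed the pattern closely. C1qb (ENSMUSG00000036905.8, GRCm38 chromosome 4, 136880129 to 136886187, minus strand) had 202.67, 1.67 and 3.03 TPM in deficient C1, D and dated, against 8.73, 77.63 and 0.86 TPM in sufficient A1, B1 and dated. C1qc (chromosome 4, 136889804 to 136893065, minus strand) had 87.52, 1.12 and 1.85 TPM in the deficient libraries and 9.99, 32.62 and 0.46 TPM in the sufficient ones, in the same order. C1qa (chromosome 4, 136895917 to 136898803, minus strand) had 74.00, 0 and 0.39 TPM in the deficient libraries and 5.68, 29.19 and 0.73 TPM in the sufficient ones. The 3 genes lie close together on chromosome 4, and deficient C1 and sufficient B1 stood apart from the rest in each. C1qa, C1qb and C1qc made up 20.3%, 55.6% and 24.0% of the C1q sum in deficient C1, and 20.9%, 55.7% and 23.4% in sufficient B1. In sufficient A1, with a C1q sum of 24.4 TPM, the shares were 23.3%, 35.8% and 40.9%. On the log2(TPM + 1) scale C1qb averaged 3.70 ± 3.45 in deficient and 3.49 ± 2.71 in sufficient libraries (SD, n = 3 each), a log2 fold change of 0.21 ± 1.80 (SE, limma adjusted p = 0.979).

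Of the Fc receptors and their signalling adaptors, all but Tyrobp were highest in deficient C1 and second in sufficient B1. The adaptors Fcer1g and Tyrobp were at 1 TPM or more in each of the 6 libraries, more widely than the receptors. Fcgr3, an activating receptor for IgG (chromosome 1, 171051174 to 171064935, minus strand), had 56.57, 3.0 and 0.86 TPM in deficient C1, D and dated, against 5.52, 13.67 and 0.52 TPM in sufficient A1, B1 and dated. Fcgr2b, the inhibitory receptor for IgG, had 23.12, 0.78 and 0.26 TPM in the deficient libraries and 0.49, 17.35 and 0.12 TPM in the sufficient ones. Reads can be divided between these related receptor genes, so the level of a single one is uncertain. Fcgr1, the high-affinity IgG receptor, and Trem2, a lipid-sensing receptor of tissue macrophages, reached 1 TPM in deficient C1 and sufficient B1 alone, at 5.33 and 1.70 TPM for Fcgr1 and 7.22 and 3.92 TPM for Trem2.

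Fcer1g, the Fc receptor gamma chain that carries the activating motif for several receptors, had 269.74, 28.42 and 4.87 TPM in deficient C1, D and dated, against 58.68, 107.10 and 4.47 TPM in sufficient A1, B1 and dated. Its log2 means were 5.17 ± 2.78 and 5.04 ± 2.28 (SD, n = 3 each), with a log2 fold change of 0.14 ± 1.47 (SE, limma adjusted p = 0.983). Tyrobp, the adaptor DAP12, which also serves receptors of natural killer (NK) cells, had 216.20, 76.37 and 3.80 TPM in deficient C1, D and dated, against 59.84, 59.32 and 3.05 TPM in sufficient A1, B1 and dated. Tyrobp thus stood well above 1 TPM in deficient D, where C1qa, Csf1r and Adgre1 were listed at 0. Tyrobp per Fcer1g was 2.69 in deficient D and 0.554 to 1.02 in the other libraries. The 6 NK cell markers summed to 85.8, 62.3 and 14.3 TPM in deficient C1, D and dated, against 74.4, 44.5 and 28.8 TPM in sufficient A1, B1 and dated. Of these, the defining marker Ncr1 had 3.08, 0.26 and 0 TPM in deficient C1, D and dated. In sufficient A1, B1 and dated it had 5.80, 0 and 0 TPM. Most of the sum in deficient D came from Klrc1, Prf1 and Gzma, at 30.03, 17.44 and 11.67 TPM. Sufficient A1 had 33.84, 13.38 and 18.77 TPM of these genes. The CD8 T cell markers Cd8a and Cd8b1 summed to 11.8, 42.5 and 13.8 TPM in deficient C1, D and dated. In sufficient A1, B1 and dated they summed to 23.4, 28.4 and 11.3 TPM. The part of NK cells or CD8 T cells in the Tyrobp values was not tested.

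Surface and lineage markers were each highest in deficient C1. Cd68, a glycoprotein of macrophage endosomes and lysosomes (chromosome 11, 69664213 to 69666153, minus strand), had 97.81, 6.36 and 2.0 TPM in deficient C1, D and dated, against 17.12, 29.11 and 9.89 TPM in sufficient A1, B1 and dated. It averaged 3.70 ± 2.62 in deficient and 4.18 ± 0.73 in sufficient libraries on the log2 scale (SD, n = 3 each), with a log2 fold change of -0.48 ± 1.13 (SE, limma adjusted p = 0.900). Cd14, the co-receptor for bacterial lipopolysaccharide, had 66.67, 3.60 and 0.20 TPM in the deficient libraries and 3.07, 6.44 and 4.24 TPM in the sufficient ones. Cd14 thus lay within 3.07 to 6.44 TPM over the sufficient libraries, while deficient C1 lay far above all others. Ms4a7, a tetraspan membrane protein of macrophages, had 40.53, 0 and 0.71 TPM in the deficient libraries and 2.39, 14.87 and 0.12 TPM in the sufficient ones. Aif1, the actin-bundling protein Iba1, had 30.77, 0.91 and 1.84 TPM against 18.51, 14.16 and 1.41 TPM, with sufficient A1 second. The integrin chain Itgam and the mannose receptor Mrc1 reached 1 TPM in deficient C1 only, at 1.08 and 1.56 TPM.

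Among lysosomal and lipid genes, Lyz2 and Apoe varied widely, while the 3 cathepsins varied far less. The log2 range was 0.52 for Ctss, 1.16 for Ctsb and 1.33 for Ctsd, against a median of 0.97 over all tested genes. Lyz2, the lysozyme of macrophages and neutrophils (ENSMUSG00000069516.8, chromosome 10, 117277331 to 117282321, minus strand), had 538.95, 2.96 and 11.21 TPM in deficient C1, D and dated, against 59.29, 490.49 and 5.69 TPM in sufficient A1, B1 and dated. Apoe, a lipid carrier secreted by macrophages (chromosome 7, 19696109 to 19699188, minus strand), had 241.17, 3.58 and 2.02 TPM in the deficient libraries and 24.82, 260.33 and 5.41 TPM in the sufficient ones. Both genes were about as high in sufficient B1 as in deficient C1. Reads of Lyz2 can be shared with its near-identical neighbour Lyz1, which was listed at 0 in deficient C1, deficient D and sufficient dated, had 0.64 TPM in deficient dated, and had 2.48 and 0.54 TPM in sufficient A1 and B1. Set against the T cell markers, Lyz2 came to 83.4 TPM per 1000 TPM of those markers in deficient C1 and 43.9 in sufficient B1, and to between 0.323 and 5.22 in the other 4 libraries.

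Ctss, a lysosomal cysteine protease that also trims the invariant chain of MHC class II, had 602.04, 420.20 and 515.43 TPM in deficient C1, D and dated, against 480.81, 580.95 and 463.09 TPM in sufficient A1, B1 and dated. Ctsb, another cysteine protease (chromosome 14, 63122462 to 63145923, plus strand), had 619.14, 412.63 and 329.37 TPM in the deficient libraries and 738.96, 650.13 and 527.29 TPM in the sufficient ones. Ctsd, an aspartic protease, had 169.67, 167.34 and 82.00 TPM against 207.80, 161.96 and 131.90 TPM. None of these genes fell to a low level in deficient D or in the dated libraries, where Lyz2 was at 2.96 to 11.21 TPM. Ctsb averaged 8.78 ± 0.46 in deficient and 9.31 ± 0.25 in sufficient libraries on the log2 scale (SD, n = 3 each), with a log2 fold change of -0.53 ± 0.24 (SE, limma adjusted p = 0.450). The 3 cathepsins therefore lacked the wide range of C1q and Lyz2, although Ctss had the same 2 libraries highest, and they were high also where Csf1r and Adgre1 were at 0. Lpl, the lipoprotein lipase gene, was listed at 0 in 4 libraries and at 0.02 TPM in sufficient A1 and sufficient dated. Gpnmb, a transmembrane glycoprotein of lipid-laden macrophages, had 7.48, 1.93 and 0.77 TPM in deficient C1, D and dated, against 0.66, 0.33 and 0.14 TPM in sufficient A1, B1 and dated.

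**Figure D3:**
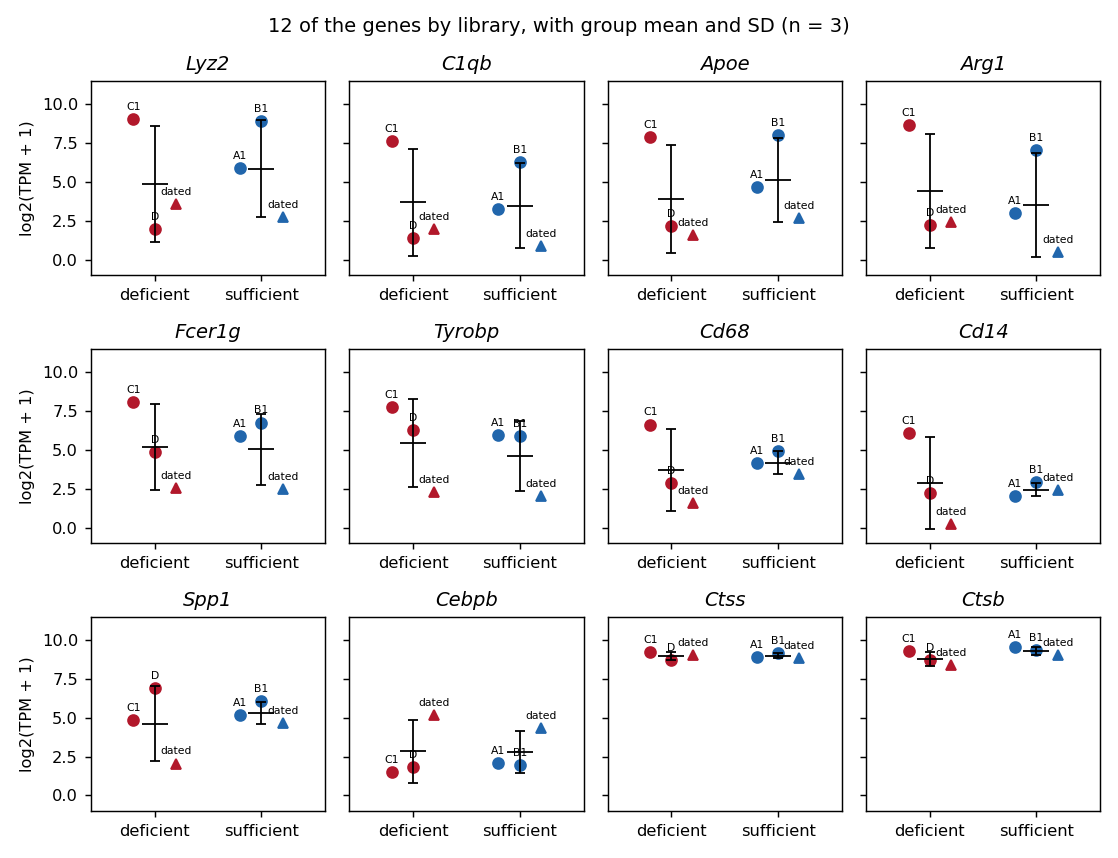
Log2(TPM + 1) of 12 of the genes, drawn as 1 point per library (triangle where the name held a date, circle otherwise). A black bar gives each group's mean and SD (n = 3). For Lyz2, C1qb, Apoe and Arg1 the C1 and B1 points lie above the rest of their groups, and Cebpb is highest in the dated libraries. Ctss is nearly level, with a range of 0.52, and Ctsb has a range of 1.16.

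Among secreted and inflammatory products, Arg1 varied most. Arg1, the arginase that depletes arginine in tumours (chromosome 10, 24915221 to 24927484, minus strand), had 413.54, 3.77 and 4.33 TPM in deficient C1, D and dated, against 7.0, 134.60 and 0.39 TPM in sufficient A1, B1 and dated. It averaged 4.45 ± 3.67 in deficient and 3.52 ± 3.33 in sufficient libraries on the log2 scale (SD, n = 3 each), with a log2 fold change of 0.94 ± 2.03 (SE, limma adjusted p = 0.890). Pf4, a chemokine of platelets and some macrophages, had 21.87, 0 and 1.65 TPM in the deficient libraries and 3.68, 6.27 and 0 TPM in the sufficient ones. The 5 platelet markers, Ppbp and Itga2b among them, summed to at most 1.4 TPM in any library.

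Spp1, the matricellular protein osteopontin, went its own way, with 28.21, 116.39 and 3.14 TPM in deficient C1, D and dated, against 35.44, 65.09 and 23.95 TPM in sufficient A1, B1 and dated. Its highest value lay in deficient D, the library with the most of the genes listed at 0. S100a8 and S100a9, calcium-binding proteins of neutrophils and monocytes, were listed at 0 in deficient D, deficient dated, sufficient A1 and sufficient dated. Deficient C1 had 1.62 TPM of S100a8 and 0.75 TPM of S100a9, and sufficient B1 had 0.27 and 0 TPM. The 12 neutrophil markers summed to 21.4, 24.1 and 13.8 TPM in deficient C1, D and dated, against 42.6, 31.9 and 11.4 TPM in sufficient A1, B1 and dated. Of these, Mmp9 had 6.06 to 24.34 TPM, Ltf 1.83 to 13.36 TPM and Ly6g 0.77 to 5.48 TPM over the libraries, G0s2 had 6.08 TPM in deficient C1, and Retnlg, Elane and Camp were listed at 0 in each library. Their part in the S100a8 and S100a9 values was not tested.

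The oxidase subunit Cybb, which makes reactive oxygen species in phagosomes, had 16.56, 2.73 and 1.58 TPM in deficient C1, D and dated, against 4.01, 3.58 and 2.05 TPM in sufficient A1, B1 and dated. Cebpb, a transcription factor of myeloid cells that other cells also induce, had 1.82, 2.57 and 35.62 TPM in the deficient libraries and 3.18, 2.94 and 18.94 TPM in the sufficient ones. Cebpb was therefore highest in both dated libraries and low in both libraries rich in C1q and Lyz2. It averaged 2.84 ± 2.04 in deficient and 2.79 ± 1.33 in sufficient libraries on the log2 scale (SD, n = 3 each), with a log2 fold change of 0.06 ± 1.02 (SE, limma adjusted p = 0.991). With a pseudocount of 0.1 or with quantile normalization its sign turned, to -0.02 and -0.06.

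None of the tested genes among the 31 passed the test between deficient and sufficient libraries. Of the 31, 20 reached 1 TPM in at least 3 libraries and were tested with limma over the 12155 genes that did so, and 11 did not reach it. Of the 20, 0 passed an adjusted p under 0.05, where 25 of all 12155 genes, or 0.206%, did. At an unadjusted p under 0.05 the count was again 0 of 20, against 1418 genes or 11.7% of all tested. The groups overlapped at each of the 20, whereas they did not overlap at 17.6% of all tested genes. Gpnmb, which was not among the 20, had at least 0.77 TPM in the deficient libraries and at most 0.66 TPM in the sufficient ones. With no filter on low values its limma adjusted p was 0.696. The limma adjusted p of the 20 lay between 0.450 and 0.999. Of the 20, 11 had positive and 9 negative log2 fold changes, with a median of 0.03, against 0.09 over all tested genes.

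The precision behind these tests was low. The standard error of the log2 fold change had a median of 1.26 over the 20 genes, against 0.29 over all tested genes, and the lowest was 0.17, for Ctss. The range of a gene over the 6 libraries had a median of 5.31 on the log2 scale, against 0.97 over all tested genes. In 19 of the 20, deficient C1 and deficient D lay further apart than the group means did, as they did in 54.2% of all tested genes.

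**Figure D4:**
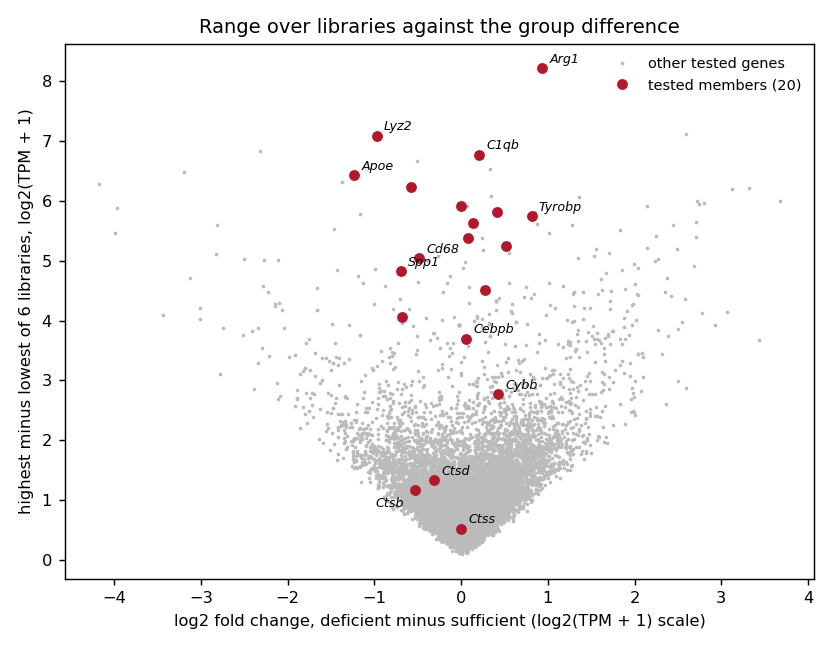
Range over the 6 libraries (highest minus lowest log2(TPM + 1)) against the log2 fold change, deficient minus sufficient, for the 12155 tested genes in grey and the 20 tested macrophage genes in red. Most red points lie high and near the middle, with Arg1 at a range of 8.22 and a fold change of 0.94, while Ctss, Ctsb and Ctsd lie among the grey points.

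The direction of the median group difference was not stable. Leaving out deficient C1 moved the median log2 fold change of the 20 genes to -1.19, and leaving out both deficient C1 and sufficient B1 moved it to -0.48. Leaving out sufficient dated moved it to -0.74, against 0.51 without deficient D, 0.53 without sufficient B1 and 0.58 without deficient dated. It was -0.03 without sufficient A1, -0.31 with a minimum of 5 TPM, -0.06 with a pseudocount of 0.1 and -0.01 with quantile normalization. Over the 4 libraries without a date the median difference was -0.15, and between the 2 dated ones it was 0.20. None of the fits that left out a library called any of the 20 genes. With 1 library left out, 0 to 121 of all 12155 tested genes were called. That count was 0 without deficient D and 0 without sufficient B1, so those fits say nothing about the 20 in particular. It was also 0 without both deficient C1 and sufficient B1. Blocking on the date mark also called 0 of the 20, against 240 of all tested genes or 1.97%.

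The make-up of the macrophage signal differed between deficient C1 and sufficient B1. Over the 29 genes above 0 in both, the TPM in deficient C1 was 0.433 to 22.7 times that in sufficient B1, with a median of 2.61. The C1q chains had nearly equal ratios, at 2.54, 2.61 and 2.68 for C1qa, C1qb and C1qc. Lyz2 and Apoe had 1.10 and 0.926, while Cd14 had 10.4, Csf1r 5.30, Arg1 3.07 and Gpnmb 22.7. The ratio of Gpnmb rests on 0.33 TPM in sufficient B1 and that of Csf1r on 1.85 TPM. As read depth is unknown, ratios of such low values are uncertain. Relative to Lyz2, Arg1 came to 0.767 in deficient C1 and 0.274 in sufficient B1, and Cd14 to 0.124 and 0.0131. Each library is 1 sample, so these ratios compare 2 libraries and not the groups.

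**Figure D5:**
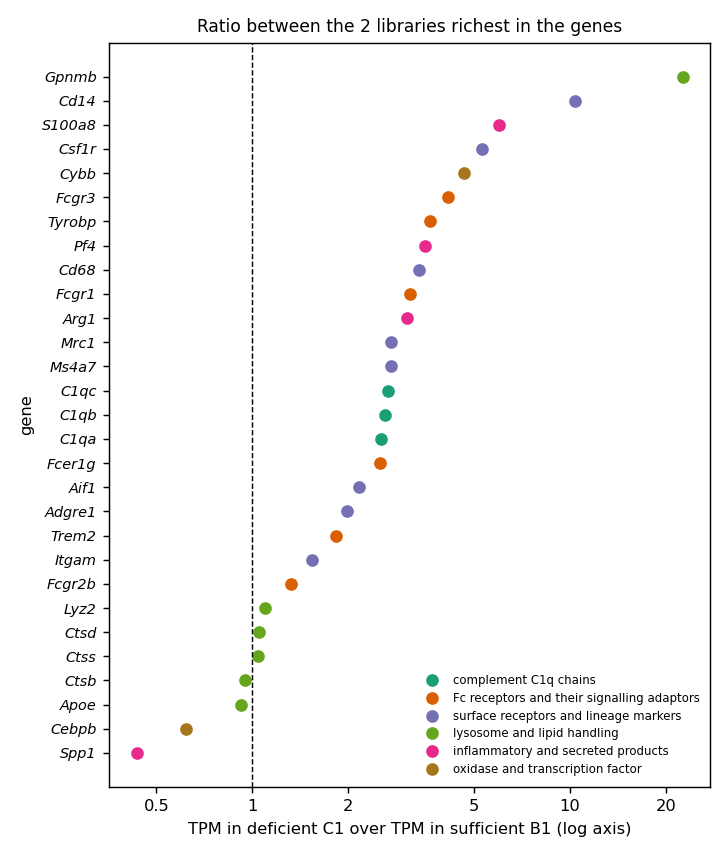
Ratio of TPM in deficient C1 to TPM in sufficient B1 for the 29 genes above 0 in both, on a log axis and coloured by role, with a dashed line at 1. The C1q chains sit together at 2.54 to 2.68, Lyz2 and Apoe lie near 1, Gpnmb lies highest at 22.7 and Spp1 lowest at 0.433. Gpnmb had only 0.33 TPM in sufficient B1, so its ratio is uncertain.

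A second list of 69 other macrophage and monocyte genes held the same order of libraries in part. Deficient C1 was highest in 44 of the 69 genes, and in 30 of them sufficient B1 was second. Over the 40 tested genes of the list, 16 had that order, against 4.01% of all tested genes. No share of all genes was counted for deficient C1 being highest alone. Of the 69, 40 were tested, 0 passed the adjusted threshold (0.206% of all genes did) and 7 had an unadjusted limma p under 0.05 (11.7% of all genes did). Of the 40, 26 had positive and 14 negative log2 fold changes, with a median of 0.09.

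The 6 tested genes of highest mean TPM on that list are given by library. Cst3, the protease inhibitor cystatin C, had 544.50, 427.01 and 451.07 TPM in deficient C1, D and dated, against 503.12, 812.57 and 446.81 TPM in sufficient A1, B1 and dated, with sufficient B1 and deficient C1 highest as for Apoe, but over a narrower range. Ncf4, a cytosolic subunit of the phagocyte oxidase, had 140.04, 181.47 and 196.51 TPM in the deficient libraries and 254.78, 259.19 and 234.32 TPM in the sufficient ones. Ccr2, a chemokine receptor of monocytes that T cells also carry, had 181.36, 243.72 and 203.25 TPM against 282.52, 232.42 and 119.14 TPM. These 3 genes were present at 119.14 TPM or more in each library, whatever the level of C1q or Lyz2. Selenop, a selenium carrier, had 80.79, 97.31 and 102.58 TPM in the deficient libraries and 50.88, 53.22 and 62.57 TPM in the sufficient ones. Plac8, a small cysteine-rich protein, had 42.59, 21.21 and 12.42 TPM against 102.20, 122.42 and 131.12 TPM. Ly6c2, a surface antigen of monocytes and of some T cells, had 22.70, 189.18 and 21.72 TPM against 26.12, 43.84 and 38.78 TPM.

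Ncf4, Selenop and Plac8 had groups that did not overlap, as 17.6% of all tested genes did. Their log2 fold changes were -0.54 ± 0.16 for Ncf4, 0.74 ± 0.17 for Selenop and -2.34 ± 0.38 for Plac8 (SE), with limma adjusted p of 0.252, 0.152 and 0.0727, and none passed. Blocking on the date mark gave limma adjusted p of 0.0259 for Plac8 and 0.0424 for Selenop, both past the threshold. The log2 difference of Plac8 was -1.86 over the 4 libraries without a date and -3.30 between the 2 dated ones, and that of Selenop 0.76 and 0.70. Plac8 also passed without deficient C1 (-2.78, limma adjusted p = 0.0495) and without deficient dated (-1.93, limma adjusted p = 0.0350), and with quantile normalization (-2.44, limma adjusted p = 0.0408). Plac8 did not pass in 10 of its 14 alternative fits, where the limma adjusted p reached 0.305. Selenop did not pass in 13 of its 14. The date block called 240 of all 12155 tested genes, and the fit without deficient dated called 121. Cst3, Ccr2 and Ly6c2 had log2 fold changes of -0.27, 0.07 and 0.36. Without deficient D, Ccr2 turned to -0.05 and Ly6c2 to -0.65, and without sufficient dated Ccr2 had -0.30.

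Some genes of the second list were far higher in deficient C1 than elsewhere, and the genes named here were chosen after their values were seen. Mmp12, the macrophage elastase, had 137.39, 0 and 0.04 TPM in deficient C1, D and dated, against 0.08, 1.44 and 0.31 TPM in sufficient A1, B1 and dated. Ccl8, a chemokine for monocytes and T cells, had 215.33, 7.40 and 8.58 TPM in the deficient libraries and 5.16, 9.69 and 6.62 TPM in the sufficient ones. Chil3, a chitinase-like protein of activated mouse macrophages, had 20.36 TPM in deficient C1, 0.01 TPM in deficient dated and was listed at 0 elsewhere. Il1b, the inflammatory cytokine interleukin 1 beta, was instead highest in sufficient B1, with 32.65, 7.32 and 0.69 TPM in deficient C1, D and dated, against 2.44, 66.84 and 0 TPM in sufficient A1, B1 and dated. Spi1, which encodes the myeloid factor PU.1, had 10.69, 0 and 0.21 TPM in the deficient libraries and 2.83, 3.84 and 0 TPM in the sufficient ones.

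Genes most like the 31 were sought among 10304 other tested genes by the distance between centred log2 values over the 6 libraries and those of the summed TPM. The nearest 3 were Cd302, Ccdc18 and Tcf4 at distances of 0.46, 0.48 and 0.50, against a median of 1.75. Next came Trim37, Kat2a, Acsl1, Telo2, Champ1, Unk, Eme1, Ppp1r12b, Pkig, Nomo1, Dnal4 and Zfp523, the last at 0.68, and 0 of the 15 were on the second macrophage list. The range of the sum over libraries was 1.94 on the log2 scale. With the cathepsins left out of the sum, a choice made after seeing the data, its range was 4.92 and 8 of the nearest 15 were on the second list. Clec7a, the beta-glucan receptor Dectin-1, was then nearest at a distance of 0.78 (median 4.44), with 30.83, 1.11 and 0.01 TPM in deficient C1, D and dated, against 1.88, 20.12 and 0.02 TPM in sufficient A1, B1 and dated. Others among the 15 were Cxcl16, Ms4a4a, the scavenger receptor Msr1, Plbd1, the cathepsin gene Ctsh and the IgG receptor Fcgr4. The distances describe likeness over 6 libraries only.

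Promoters of the genes were read as a description with no test. The 31 were picked as macrophage genes, and those with and without the shared order of libraries were not compared. RefSeq windows of GRCm38.p6 that run 250 bases before to 50 bases after a start site were found for 23 of the 31 genes, and not used for C1qa, Tyrobp, Csf1r, Adgre1, Cd14, Ctsb, Lpl and Arg1. They were searched on both strands for GAGGAAG, the core of a PU.1 site, for TTGCNNAA, a C/EBP site, and for TCACGTG, the M-box bound by lysosomal regulators of the MiT/TFE family. GAGGAAG or its reverse complement CTTCCTC occurred in 10 of the 23 genes (43.5%), against 15.4% of 27025 genes and 13.6% of 32851 promoter windows. TTGCNNAA occurred in 6 of the 23 (26.1%), against 12.2% of genes and 10.8% of windows. TCACGTG occurred in 1 of the 23 (4.35%), against 4.29% of genes and 3.77% of windows, and the 1 was Ctsd. A match describes these letters only and is not a site of binding.

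Of the windows, 3 from genes highest in deficient C1 and second in sufficient B1 are shown beside that of Ctsd, which did not follow that order, 5′ to 3′ on the strand of the gene, with every match in capitals. They are C1qc at chr4:136892865-136893164 (minus strand), Fcgr3 at chr1:171059354-171059653 (minus strand), Trem2 at chr17:48346151-48346450 (plus strand) and Ctsd at chr7:142387778-142388077 (minus strand).
C1qc: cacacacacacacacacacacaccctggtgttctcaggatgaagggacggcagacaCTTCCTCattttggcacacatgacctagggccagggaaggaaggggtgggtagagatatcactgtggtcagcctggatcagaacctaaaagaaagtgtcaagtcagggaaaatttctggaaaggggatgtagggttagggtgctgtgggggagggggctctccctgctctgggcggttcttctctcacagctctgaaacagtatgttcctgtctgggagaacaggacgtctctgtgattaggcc
Fcgr3: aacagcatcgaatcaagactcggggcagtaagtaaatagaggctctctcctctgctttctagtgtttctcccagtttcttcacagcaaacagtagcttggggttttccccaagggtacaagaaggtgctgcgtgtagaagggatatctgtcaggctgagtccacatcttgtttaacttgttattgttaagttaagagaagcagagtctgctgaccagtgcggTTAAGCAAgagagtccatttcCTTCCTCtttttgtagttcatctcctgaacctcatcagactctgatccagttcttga
Trem2: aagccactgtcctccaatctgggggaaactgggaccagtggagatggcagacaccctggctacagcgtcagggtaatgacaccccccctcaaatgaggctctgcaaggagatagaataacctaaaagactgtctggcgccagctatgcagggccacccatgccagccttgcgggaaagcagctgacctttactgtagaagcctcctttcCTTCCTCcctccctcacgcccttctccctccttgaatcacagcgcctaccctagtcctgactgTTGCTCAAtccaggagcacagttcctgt
Ctsd: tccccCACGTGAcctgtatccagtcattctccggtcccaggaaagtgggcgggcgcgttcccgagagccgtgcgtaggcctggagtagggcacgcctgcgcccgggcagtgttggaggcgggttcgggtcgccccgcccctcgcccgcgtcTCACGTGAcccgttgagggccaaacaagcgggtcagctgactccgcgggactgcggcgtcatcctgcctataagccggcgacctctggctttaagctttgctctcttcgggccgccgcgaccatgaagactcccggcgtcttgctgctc
The PU.1 core begins 194 bases before the start site in C1qc, 7 bases before it in Fcgr3 and 41 bases before it in Trem2, each time as CTTCCTC on the strand shown. Fcgr3 and Trem2 also hold the C/EBP letters. In Ctsd the M-box letters begin 245 and 99 bases before the start site, and at the second place the matches on both strands overlap in a palindrome. Lyz2, C1qb and Apoe, which were high in deficient C1 and sufficient B1, had none of the 3 motifs in their windows. Spp1, highest in deficient D, held the PU.1 core in 1 window and the C/EBP letters in another. Ctss, with a log2 range of only 0.52, also held a PU.1 core. Every window shown holds a match, so the windows shown do not stand for all 23 genes. Whether the letters go with the order of libraries was not tested.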

How the data were processed

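Treg cells were sorted from MC38 tumours into lysis buffer, and Nextera XT libraries were read as 75-base pairs on a NextSeq, per the labels' protocols. Per the submitters' processing notes, the tools were STAR, RSEM and limma and the builds GRCm38 and mm10; versions and strand setting are not given in the sources used here, so overlapping genes cannot be separated. The deposited values are on a log2 scale. Back-calculated as powers of 2 less 1, the libraries had totals of 999999 to 1000001, which is what log2(TPM + 1) gives. All 55450 identifiers matched GENCODE mouse release 21, from which coordinates come. Columns named as KO were taken as deficient and as WT as sufficient; none carried the replicate numbers of the titles. Pairs of libraries differed at 20182 or more genes.

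TPM was recovered to steps of 0.01. Genes at 1 TPM or more in at least 3 of 6 libraries (12155) were fitted with limma (lmFit, eBayes with trend, no covariate, two-sided, Benjamini-Hochberg over all tested genes), after the fit was tested on simulated data. Fold changes are deficient minus sufficient on log2(TPM + 1), which understates low genes. The members and lists were chosen with earlier results of these data known. Values by library were given for the members of highest mean TPM in each role, at most 4 a role, with further members beside them, and fold changes for the highest tested member of each role. From the second list, the 6 tested genes of highest mean TPM were named, and the 15 genes nearest to the members' sum. Alternatives covered the filter, normalization, pseudocount, variance model, date mark and libraries. Lists for 12 other cell types were summed per library. Fits used limma 3.58.1 in R 4.3.3; tables and plots used pandas 2.3.3, numpy 2.4.6 and matplotlib 3.10.9 under Python 3.11.15.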

Additional observations from a re-analysis of the deposited data

How the results depend on the processing

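The count of called genes among the 31 stayed at 0 under each alternative fit. Over all genes the count of 25 moved to 240 with the date mark as a block, 4 without a mean-variance trend, 1 with no filter on low values and 0 without deficient C1 and sufficient B1. Leaving out 1 library gave 0 to 121 (0 without deficient D or sufficient B1, 2 without sufficient A1, 11 without deficient C1, 121 without deficient dated). On the second list the count of 0 moved to 2 with the date block, to 1 with quantile normalization, and to between 0 and 1 with 1 library left out. The log2 ratio of the mean summed TPM, deficient over sufficient, was 0.09, and between -0.76 (without deficient C1) and 0.46 with 1 library left out. It was 0.65 without the cathepsins and -0.39 without deficient C1 and sufficient B1.

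Of the fold changes given for single genes, those of Ctsb, Cst3, Ncf4, Selenop and Plac8 kept their sign throughout, although Cst3 ranged over -0.44 to -0.01 with 1 library left out, the last without sufficient B1. With 1 library left out, C1qb ranged over -1.78 to 1.61, Fcer1g -1.32 to 1.44, Cd68 -1.95 to 0.57, Arg1 -1.19 to 2.72, Cebpb -1.12 to 0.82, Ccr2 -0.30 to 0.32 and Ly6c2 -0.65 to 0.88. Without deficient C1 and sufficient B1, C1qb had -0.38 and Fcer1g -0.46. Cebpb had -0.02 with a pseudocount of 0.1 and -0.06 with quantile normalization, and Ccr2 had -0.03 with quantile normalization. The cause was not tested. No paired analysis was possible because the column names carry no replicate numbers. Robust eBayes and a minimum of 5 TPM changed no count by over 1.5 times, but that minimum moved the median of the tested members to -0.31 (0.11 over all genes), and Cebpb has no value at that minimum. The unknown depth limits every low value.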

Other observations

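Transcripts of 2 further cell types were uneven between libraries. Of 6 fibroblast markers, Dcn, the proteoglycan decorin, had 274.79, 22.94 and 2.92 TPM in deficient C1, D and dated, against 1.06, 27.99 and 0.98 TPM in sufficient A1, B1 and dated. Col3a1, a collagen chain, had 19.97, 5.68 and 1.88 TPM in the deficient libraries and 0.23, 10.23 and 2.78 TPM in the sufficient ones. Deficient C1 was thus highest and sufficient B1 second for both, as for C1q. Col1a1 and Col1a2, the defining collagen chains of fibroblasts, were at 1.09 TPM or less in each library.

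Haemoglobin transcripts appeared mainly in sufficient dated, with 29.06 TPM of Hba-a2, 16.55 TPM of Hbb-bs and 11.64 TPM of Hba-a1. They were listed at 0 in the 3 deficient libraries, and sufficient B1 had 0.99 TPM of Hba-a2. Sufficient dated had 83.0 TPM of the 31 macrophage genes without cathepsins, next to the lowest sum.

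Summed levels over the 10 dendritic cell markers lay between 4.7 and 22.0 TPM, and over 12 neutrophil markers between 11.4 and 42.6 TPM, with sufficient B1 highest for the first list and sufficient A1 for the second.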
